A study of Mus musculus with 40 samples.

Results

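The comparison set 6 SJL-richest against 6 B6-rich APP transgenic mice, 12 of the 40 mice of the series, by the strain percentages on their labels. SJL-richest mice were labelled 84% SJL, 16% B6 and 0% DBA (arrays 6 to 9, 11 and 12). B6-rich mice were labelled 37.5% SJL, 62.5% B6 and 0% DBA (arrays 1 to 5 and 13). All 12 carried APP Tg and were 12 months old, so the labelled background was what the groups were chosen to differ in. The inbred SJL and inbred B6 mice used beside them, 4 of each, carried no transgene and were also 12 months old. A further 4 inbred DBA mice of that age are not compared here and entered the inbred fit only through its spread. Each mouse gave total hippocampal RNA to a single Illumina mouse Ref-8 bead array, and Abeta40 was measured in the guanidine fraction of the transgenic mice. The transgene's line and promoter, the sex of the mice and the crosses behind the percentages are not given in the sources used here, and a percentage describes a group, not the genome of 1 mouse.

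An inbred strain carries the same allele on both copies of a chromosome, so every mouse of it has the same genome. A mouse of mixed background can carry at any position only B6 alleles, only SJL alleles, or one of each, and neighbouring genes are inherited together. A gene whose RNA level is set by a variant close to it therefore takes a low, a middle or a high level according to the alleles a mouse holds there, while a gene with no such variant shows no such steps. APP transgenic mice carry an added amyloid precursor protein gene, from whose product Abeta is cut.

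Of 25697 probes, 13589 were tested: a probe had to be detected (p not above 0.01) on 4 or more of the 40 arrays. On the 12 arrays 43.1% to 48.1% of probes passed that detection limit, and the median raw signal ran from 19.0 to 29.3. Arrays 1 to 8 and 9 to 16 are treated as sets of 8 by their running numbers, since the labels name no slide. The first set held SJL-richest mice 1 to 3 and B6-rich mice 1 to 5, and the second held SJL-richest mice 4 to 6 and B6-rich mouse 6. Signals below are normalized log2 signals unless a fold is named, and a probe's level is compared only with the same probe on other arrays. Hippocampal field genes such as Prox1, Wfs1 and C1ql2 passed the detection filter.

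SJL-richest mice had higher signal than B6-rich mice at 65 probes and lower signal at 100, or 165 in all, by limma with Benjamini-Hochberg adjusted p at most 0.05. That was 1.21% of the probes tested, 0.478% higher and 0.736% lower. The largest falls in SJL-richest mice were in the zinc finger gene Zfp365 (33.2-fold), Pdrg1 (13.3-fold), the predicted gene Gm5801 (7.4-fold) and Srxn1 (6.4-fold). Zfp365 and Pdrg1 were above background on 1 of 6 SJL-richest arrays each and Srxn1 on 3 of 6, so these folds depend on signals near background. The largest rises were in Lbp (4.25-fold), the class I histocompatibility genes H2-D1 (3.29-fold) and H2-T10 (3.14-fold), Serpina1b (3.09-fold) and the somatostatin receptor gene Sstr1. Of the 165 probes, 32 differed by 2-fold or more, 9 of them higher and 23 lower in SJL-richest mice. The signals of the groups did not overlap at 97 of the 165, while 224 probes, 1.65% of all tested, showed no overlap. At an unadjusted p under 0.05 there were 2322 probes (17.1%), 1225 higher (9.01%) and 1097 lower (8.07%).

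With the set of 8 arrays as a block, 105 probes passed (0.773%), 30 higher (0.221%) and 75 lower (0.552%), of which 81 were among the 165. The lower share was then 71.4%, against 60.6% without the block. Within arrays 1 to 8 alone 19 probes passed, 6 higher and 13 lower. Within arrays 9 to 16, where B6-rich mice are represented by mouse 6 alone, none passed in limma and 856 had an unadjusted p under 0.05; that mouse was taken to vary like the others. Leaving out 1 mouse gave between 12 probes (without B6-rich mouse 4) and 317 (without B6-rich mouse 6). SJL-richest mouse 5 gave 15 when left out, SJL-richest mouse 3 gave 29, SJL-richest mouse 4 gave 54, B6-rich mouse 5 gave 57, B6-rich mouse 3 gave 66, B6-rich mouse 1 gave 79, SJL-richest mouse 1 gave 90 and SJL-richest mouse 2 gave 108. Of the named probes that passed, 69 were followed through these settings, and all 69 kept their sign whichever mouse was left out, but 7 kept their call throughout: Sstr1, Nin, Eif2s2, Rcan2, Perm1, Rnd3 and Zeb2. With the block 37 of the 69 kept their call.

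Zfp365 had the largest difference of the probes that passed. Its signal was 5.07 at the lowest, 5.35 at the median and 10.72 at the highest in SJL-richest mice, against 10.85, 11.23 and 11.73 in B6-rich mice. SJL-richest mouse 3 was the one at 10.72, and the other 5 lay at 5.07 to 5.58, so the groups came close without overlapping. B6-rich mice 1, 2 and 4 stood at 11.56 to 11.73 and B6-rich mice 3, 5 and 6 at 10.85 to 10.90. The difference was -5.05 (SE 0.814), with an adjusted p of 0.0222 in limma, and only SJL-richest mouse 3 of its group had a signal above background. Inbred SJL mice had 6.20 to 6.41 and inbred B6 mice 11.57 to 11.82.

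Gm5801 followed the same form with another mouse apart. SJL-richest mouse 2 was at 9.92 and the other 5 at 7.01 to 7.34, against B6-rich mice 2 and 3 at 9.96 and 9.94 and the other 4 at 10.73 to 10.83. The difference was -2.89 (SE 0.438, adjusted p 0.0222 in limma). The groups did not overlap, although SJL-richest mouse 2 stood next to B6-rich mice 2 and 3. Gm5801 is placed on chromosome 14, yet B3galt6 on chromosome 4 had the same mice apart. B3galt6 was at 7.93 in SJL-richest mouse 2 and at 7.86 and 7.81 in B6-rich mice 2 and 3. Whether the Gm5801 probe reads a sequence elsewhere was not tested.

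Srxn1 encodes sulfiredoxin, which restores oxidised peroxiredoxins. Its signal ran from 4.85 over a median of 5.44 to 7.90 in SJL-richest mice, against 7.91, 8.39 and 8.98 in B6-rich mice. SJL-richest mouse 6 made the high end of its group and met the lowest B6-rich mouse, without overlap. The difference was -2.68 (SE 0.432, adjusted p 0.0222 in limma), with 3 of 6 SJL-richest arrays above background. A second Srxn1 probe gave -2.69 (adjusted p 0.0304) and the remaining probe gave -0.16 (adjusted p 0.662), so the probes of this gene disagree. The same held for Eif2s2, which encodes the beta subunit of the translation initiation factor eIF2: one probe fell by 1.45 on the log2 scale (SE 0.21, adjusted p 0.0222) and the other gave 0.02 (adjusted p 0.936). Signal alone does not separate RNA level from a sequence difference under a probe, and that was not tested here.

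Lypd6, whose product modulates nicotinic acetylcholine receptors, ran at 6.28, 6.48 and 7.82 in SJL-richest mice against 7.86, 8.37 and 8.71 in B6-rich mice. SJL-richest mouse 4 was the high one, and the groups did not overlap. The difference was -1.65 (SE 0.25, adjusted p 0.0222). Ninein and the somatostatin receptor showed the steadiest rises. Sstr1 ran at 5.97, 6.43 and 6.61 in SJL-richest mice and at 4.46, 4.67 and 5.41 in B6-rich mice, in which no array was above background. Its difference was 1.58 (SE 0.167, adjusted p 0.00547), at least 1.67-fold, and no B6-rich mouse reached the lowest SJL-richest one. Nin, the gene of the centrosomal protein ninein, was at 8.83, 9.17 and 9.19 in SJL-richest mice against 8.41, 8.56 and 8.62 in B6-rich mice. The groups did not overlap, and the difference was 0.55 (SE 0.0702, adjusted p 0.0137). Its inbred difference was 0.24 (adjusted p 0.0959).

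**Figure D1:**
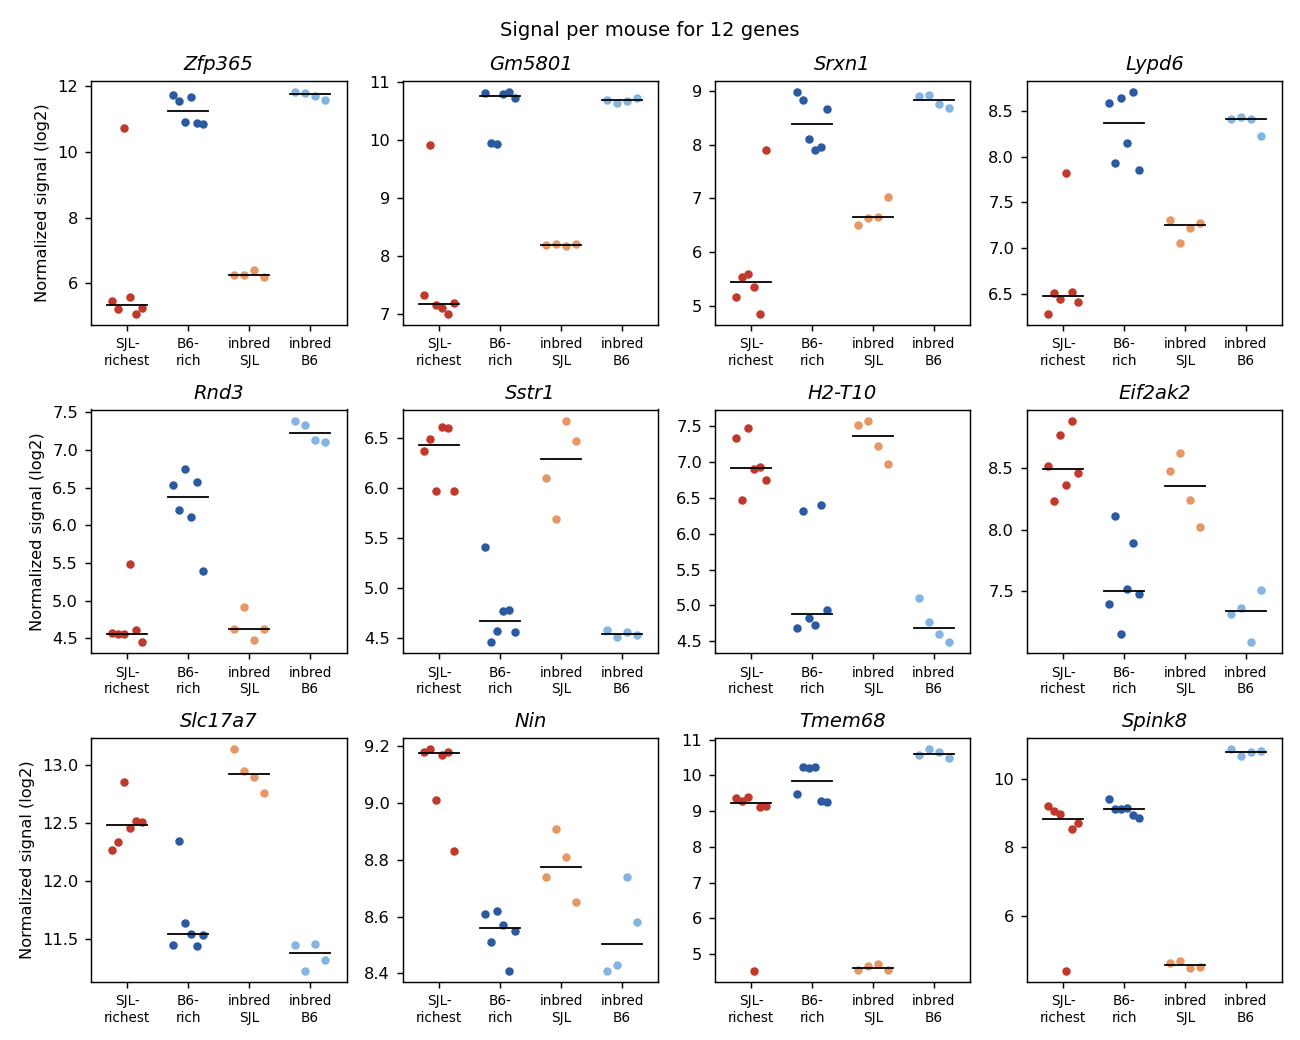
Normalized log2 signal per mouse (y axis, a scale of its own for each of 12 genes) in 6 SJL-richest, 6 B6-rich, 4 inbred SJL and 4 inbred B6 mice; each point is a mouse and each bar the group's median. In Zfp365, Gm5801, Srxn1, Lypd6 and Rnd3 a single SJL-richest mouse sits apart from the other 5, near the B6-rich mice, while in Tmem68 and Spink8 SJL-richest mouse 4 alone is as low as the inbred SJL mice.

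Other genes that fell without overlap between the groups had smaller differences. Them4, a thioesterase gene, fell by 1.08 on the log2 scale (adjusted p 0.0366, and 0.0693 with the block). Etnppl, an enzyme of phosphoethanolamine breakdown made in astrocytes, fell by 1.00 at one probe and by 1.13 at the other, at which the groups overlapped. Ninj2 (ninjurin 2, an adhesion protein) fell by 0.85, Rpp14 (a ribonuclease P subunit) by 0.82, Cyp4f14 (a cytochrome P450) by 0.82 and Zc3h13 (a part of the RNA methylation complex) by 0.76. Rcan2, a regulator of the phosphatase calcineurin, fell at all 3 of its probes, by 0.83, 0.50 and 0.45, and the groups overlapped at the one that fell by 0.50. The first of these was above background on no SJL-richest array, which gives at least 1.41-fold. Perm1, a regulator of oxidative metabolism known from muscle, was likewise not above background in SJL-richest mice and at least 1.21-fold lower there. Fam199x on the X chromosome was above background on 4 of 6 B6-rich arrays and on no SJL-richest array, and the limit set by background allows no fold. Adjusted p in limma was 0.0222 to 0.0469 for these genes.

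Rises without overlap included the cation channel gene Trpm4 (0.99), detected on 6 of 6 SJL-richest and 1 of 6 B6-rich arrays, and Eif2ak2 (0.94, SE 0.157, adjusted p 0.0241). Eif2ak2 encodes PKR, an interferon-inducible kinase that acts on eIF2. Its signal was 8.23, 8.49 and 8.88 in SJL-richest mice against 7.16 at the lowest and 8.11 at the highest in B6-rich mice. B6-rich mice 2 and 5, at 8.11 and 7.89, were nearest the SJL-richest mice. The remaining rises were Rbpjl (0.77), Serpina1d (0.77), Tmod4 (0.72), the ciliary gene Tekt1 (0.67), the centrosomal gene Cep78 (0.65), the intraflagellar transport gene Traf3ip1 (0.63), Atl3 (0.54), the amino acid transporter gene Slc38a2 (0.51) and the replication factor gene Mcm10 (0.51). Their adjusted p was 0.0274 to 0.0445. With the block Tmod4 (0.0555), Tekt1 (0.0721), Traf3ip1 (0.0504), Atl3 (0.0752) and Slc38a2 (0.0614) missed the threshold. Probes disagreed for Atl3, whose other 3 gave -0.04 to 0.13, and for Slc38a2, whose other gave 0.09, none of them passing. Serpina1d was above background on 1 of 12 arrays and belongs with Serpina1b to a family of near-identical copies, so neither can be read as that gene alone.

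Choroid plexus genes tended to be higher in SJL-richest mice, although none passed the test. Choroid plexus is the epithelium that makes cerebrospinal fluid and lies against the hippocampus. All 10 of its measured genes were positive, with an unadjusted p under 0.05, and their median difference was 1.85, against 0.00605 over all probes tested, of which 51.89% were positive. Ttr, the carrier transthyretin and the best known of them, ran at 12.34, 14.53 and 14.96 in SJL-richest mice against 9.91, 11.66 and 13.92 in B6-rich mice, and the groups overlapped (2.36, SE 0.645, adjusted p 0.0906). Within arrays 1 to 8 the median difference of the 10 genes was 2.37. Within arrays 9 to 16, where mouse 6 is the only B6-rich mouse, they gave -0.586 to 0.446. Their median inbred SJL minus inbred B6 difference was -0.527. The mean over the 10 genes was 7.47 to 10.45 in SJL-richest mice, 4 of which lay at 9.63 or above and the other 2 at 7.47 and 7.74. In B6-rich mice it was 6.48 to 7.47 in 5 mice and 9.02 in mouse 6. With that mean as a covariate, chosen after the data were seen, 0 probes passed in limma and 1095 had an unadjusted p under 0.05. All 165 probes kept their sign under it, and their median size was 0.509 against 0.551 without it. The covariate itself differed between the groups, averaging 9.225 in SJL-richest and 7.329 in B6-rich mice. A covariate tied to the groups makes their difference less precise, so the 0 does not show what the calls rest on.

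The inbred mice give the size of the pure strain difference on other arrays. Before that comparison is used, a mismatch must be stated. For all 28 transgenic arrays the columns of the 2 deposited tables match, at a correlation of 1. For 8 of the 12 inbred arrays the column of the normalized table matches another array instead, and for 6 of those the strain differs. The non-normalized table was used, by running number. Read that way, inbred SJL and inbred B6 mice differed at 1841 probes (13.5%), 889 higher (6.54%) and 952 lower (7.01%) in inbred SJL mice. The inbred SJL mice were all on arrays 33 to 40, with inbred B6 mice 3 and 4. Inbred B6 mice 1 and 2 were on arrays 29 and 30, in an earlier set of 8. They had 48.8% and 48.4% of probes detected, against 43.2% to 44.1% in the other inbred SJL and B6 mice. With the set of 8 arrays as a block 1579 probes passed, 763 higher and 816 lower. With the normalized table read by its own sample labels, 0 probes passed in limma and 1026 had an unadjusted p under 0.05.

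Most of what differed between the transgenic groups also differed between the inbred strains. Of the 165 probes, 102 (61.82%) passed in the inbred comparison, and these were 5.54% of the 1841. The direction was the same at 101 of the 102, 69 lower and 32 higher in SJL, and Kif1b was the exception. The 102 had a median size of 0.744, and 29 of them reached 2-fold. The 63 probes that passed only in the transgenic comparison were 32 higher and 31 lower, with a median size of 0.453 and 3 at 2-fold or more. Passing in one comparison and not in the other does not show that a difference differs, and that test is given further on. With the choroid plexus mean as covariate the median size was 0.752 over the 102 and 0.358 over the 63.

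A few genes of those 63 probes, named after their values were seen, are given here. Lbp, the lipopolysaccharide-binding protein gene, ran at 6.33, 8.05 and 8.51 in SJL-richest mice against 4.72, 5.70 and 6.39 in B6-rich mice. SJL-richest mice 6 and 1 were its low ones, at 6.33 and 6.85, the same mice whose choroid plexus mean was low. The difference was 2.09 (SE 0.4, adjusted p 0.0338, and 0.0569 with the block). Ptgis (prostacyclin synthase) gave 1.35, the keratin gene Krt23 1.36, Gnmt (glycine N-methyltransferase) 0.99, Rrbp1 0.85, Hspg2 (the basement membrane protein perlecan) 0.67 and Ccdc113 0.62. Of these 6 only Ccdc113 passed with the block (0.0369), and their adjusted p without it was 0.0361 to 0.0491. Their inbred differences lay between -0.14 and 0.24. With the choroid plexus mean as covariate the difference was 0.83 for Lbp, 0.59 for Ptgis, 0.84 for Krt23, 0.39 for Gnmt, 0.455 for Rrbp1, 0.34 for Hspg2 and 0.56 for Ccdc113, and none passed. Tekt1, described above, gave 0.30 with it. Other genes of the 63 probes had a larger difference with the covariate than without. These included Trpm4 (1.12 against 0.985), Atl3 (0.669 against 0.541), Traf3ip1 (0.698 against 0.626) and Mcm10 (0.604 against 0.508). Slc38a2 (0.582 against 0.511) and Iqcb1 (0.385 against 0.349) did so too, and none of these passed with it.

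Across probes the transgenic difference followed the inbred one at less than its size. Of the 1841 probes that passed in the inbred comparison, 1577 (85.66%) had the same sign in the transgenic comparison, against 59.22% of all probes and 55.08% of those that did not pass in the inbred mice. The least-squares slope through 0 over the 1841 was 0.421, and the median ratio was 0.334. The difference in labelled SJL share was 46.5 percentage points, or 0.465. Among 370 probes with an inbred difference of 2-fold or more, 361 (97.57%) had the same sign, and 43 passed in the transgenic comparison. Their median ratio was 0.415, with an interquartile range of 0.281 to 0.576, and 0.379 when differences were taken in linear signal. These are descriptions across probes, which share arrays and neighbouring genes. With the normalized table, the 1026 probes above had the same sign at 55.75% and a slope of 0.0918.

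**Figure D2:**
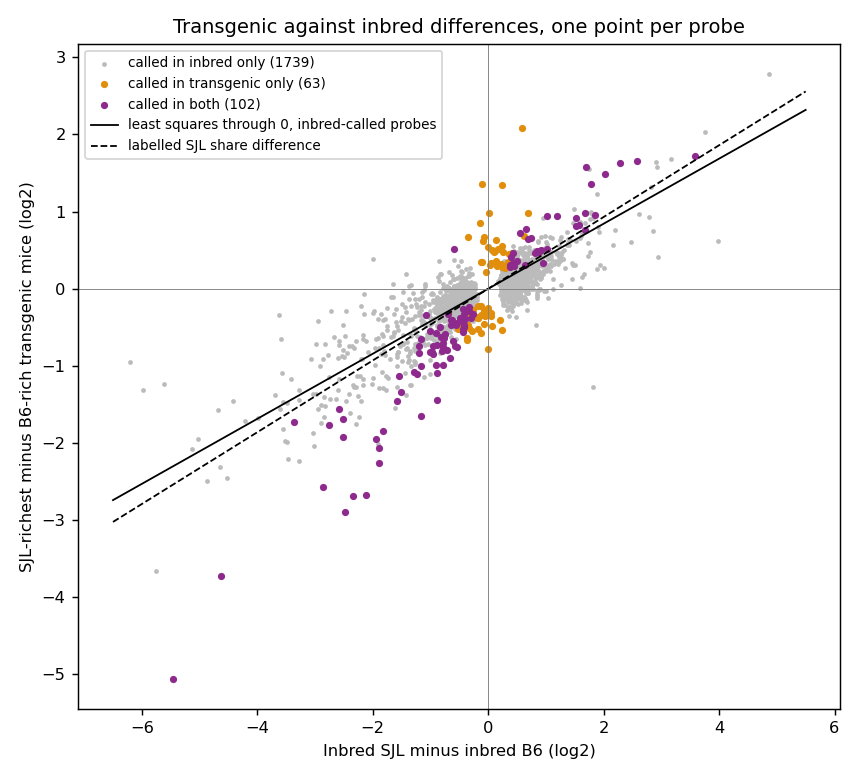
SJL-richest minus B6-rich difference (y axis, log2) against inbred SJL minus inbred B6 difference (x axis, log2), a point for each probe that passed in either comparison: 102 in both, 63 in transgenic mice only and 1739 in inbred mice only. The solid line has the slope 0.421 fitted through 0 over the 1841 inbred probes and the dashed line the labelled share difference of 0.465; most points lie to the lower left and the upper right.

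The mice within a transgenic group differed more than the inbred mice did at those 370 probes. The median SD was 0.443 in SJL-richest and 0.466 in B6-rich mice, against 0.142 in inbred SJL and 0.127 in inbred B6 mice. The 370 probes were chosen by the inbred comparison, which a small spread among those same inbred mice helps a probe to pass. At the probes that did not pass in the inbred comparison the median SD was 0.144 in SJL-richest and 0.138 in B6-rich mice, against 0.141 in inbred SJL and 0.123 in inbred B6 mice.

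Each mouse was placed between the strains by an index, the distance of its signal from the inbred B6 mean as a fraction of the distance from the inbred B6 to the inbred SJL mean. It is 0 for a signal at the B6 mean and 1 at the SJL mean. The median index over the 370 probes was 0.938, 0.796, 0.946, 0.892, 0.844 and 0.846 in SJL-richest mice 1 to 6. It was 0.353, 0.425, 0.256, 0.246, 0.374 and 0.311 in B6-rich mice 1 to 6, with no overlap. The inbred mice were on later arrays than the transgenic mice, and any shift between those arrays remains in the index. With the index taken in linear signal, a median of 60.2% of the probes stood above 0.75 in SJL-richest mice, 31.5% between 0.25 and 0.75 and 7.03% below 0.25. The corresponding shares in B6-rich mice were 23.8% above, 38% between and 37% below.

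**Figure D3:**
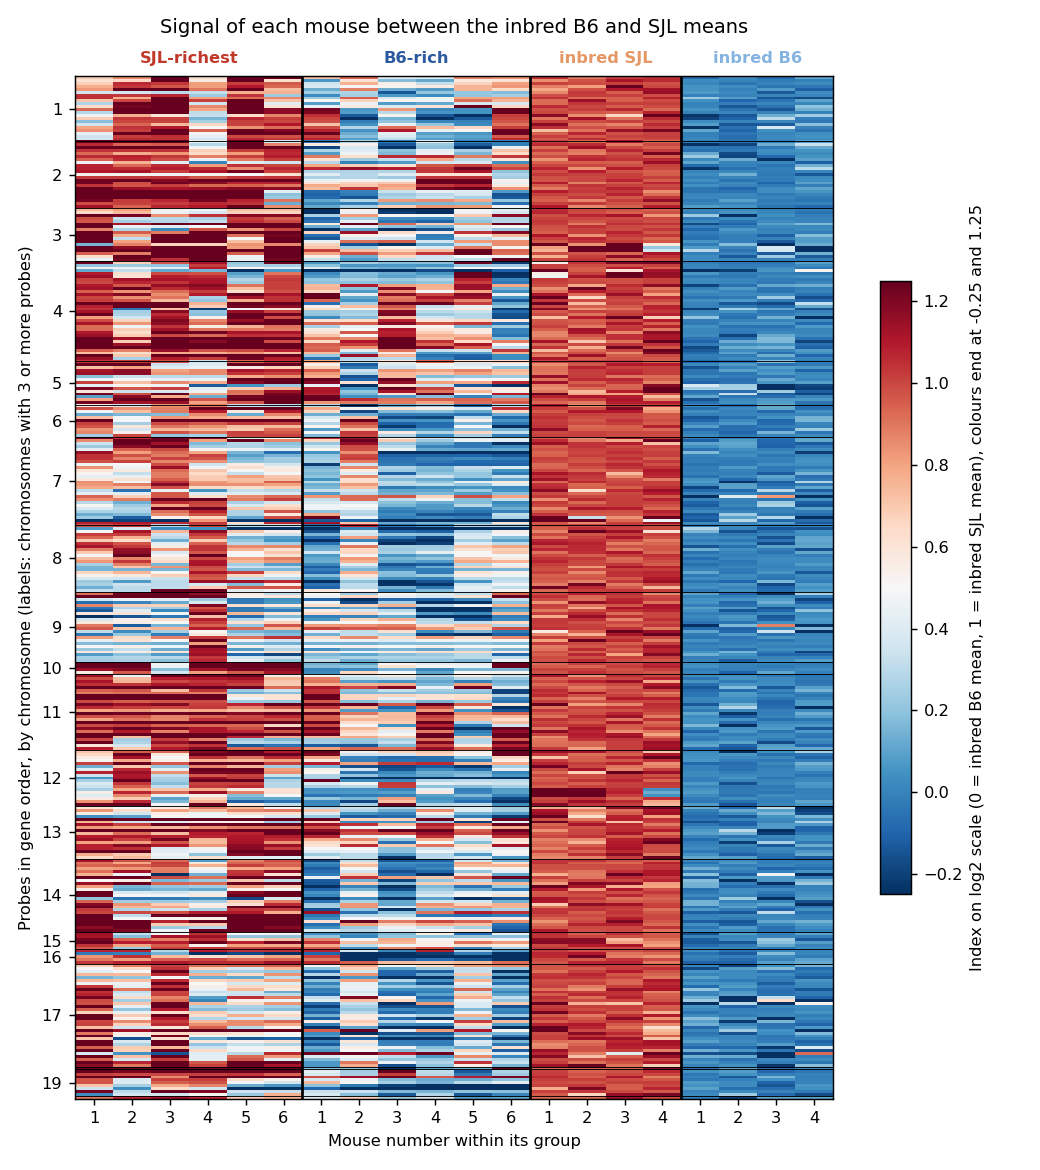
Index per mouse (columns: 6 SJL-richest, 6 B6-rich, 4 inbred SJL and 4 inbred B6 mice) for 349 of the 370 probes that have a chromosome, 1 probe a row in gene order; red stands near the inbred SJL mean, blue near the inbred B6 mean and white midway. Runs of neighbouring probes share a colour within a mouse and change together, such as chromosome 9, where SJL-richest mouse 4 is red and the other 11 transgenic mice are pale.

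The index ran in blocks along chromosomes and differed from mouse to mouse. On chromosome 17 (35 probes) it was 1.00 and 1.06 in SJL-richest mice 1 and 3 and 0.513 to 0.549 in the other 4. It was 0.522 and 0.450 in B6-rich mice 2 and 5 and 0.0385 to 0.1 in the other 4. The 12 mice thus stood at 3 levels, near 1, near the middle and near 0. On chromosome 12 (19 probes) SJL-richest mice 2, 4 and 5 were at 1.01 to 1.07 and mice 1, 3 and 6 at 0.447 to 0.518, against 0.0678 to 0.271 in B6-rich mice. On chromosome 16, with 5 probes only, B6-rich mouse 1 stood at 1.01 and the other 5 B6-rich mice at -0.283 to -0.03, against 0.739 to 1.05 in SJL-richest mice.

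Chromosome 9 departed from the group labels. None of its 728 tested probes passed in the transgenic comparison, although 113 (15.5%) passed in the inbred comparison, and the median ratio over its 24 strongly different probes was 0.157. SJL-richest mouse 4 had an index of 1.06 there, the other 5 SJL-richest mice 0.323 to 0.442 and the B6-rich mice 0.240 to 0.451. On chromosome 5, 2 of 870 probes passed (0.23%), with an index of 0.453 to 1.14 in SJL-richest mice and 0.154 to 0.949 in B6-rich mice. The highest shares of probes that passed were on chromosomes 17 (2.66%), 2 (2.61%), 19 (2.55%) and 14 (2.12%).

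**Figure D4:**
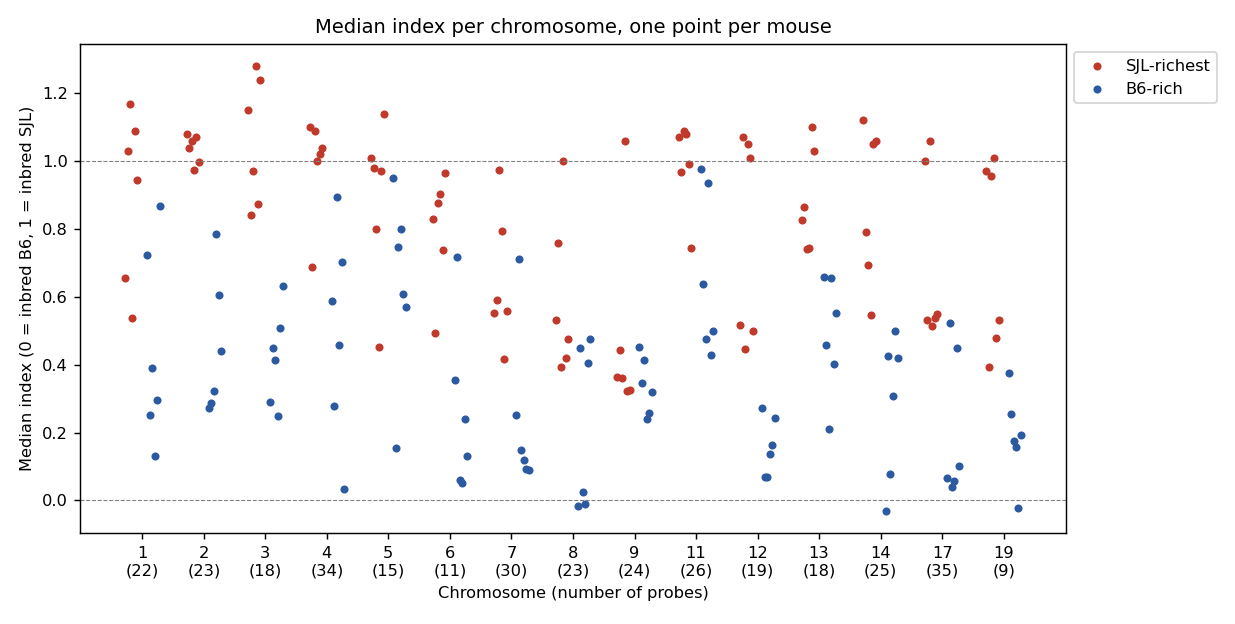
Median index per chromosome (y axis; 0 is the inbred B6 mean and 1 the inbred SJL mean) for chromosomes with 9 or more of the 370 probes (x axis, number of probes in brackets), a point for each SJL-richest (red) and B6-rich (blue) mouse. The groups do not overlap on chromosomes 2, 3, 12, 13, 14 and 19, and they intermix on chromosomes 5 and 9.

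Among the probes with the largest inbred differences, some followed a single mouse, and others split a group or followed no single mouse. Spink8, a serine protease inhibitor gene of chromosome 9, had the largest, -6.21 (adjusted p 4.64e-12), at least 31.8-fold. Its signal was 4.40 in SJL-richest mouse 4, next to the inbred SJL mice at 4.47 to 4.68. In the other 5 SJL-richest mice it was 8.55 to 9.21, against 8.87 to 9.41 in the B6-rich mice and 10.66 to 10.87 in the inbred B6 mice. The transgenic difference was -0.95 (adjusted p 0.52), and the groups overlapped. Tmem68 on chromosome 4 and Zfp330 on chromosome 8 were also low in SJL-richest mouse 4 alone, at 4.54 and 4.85, with differences of -1.31 (adjusted p 0.389) and -1.23 (adjusted p 0.406). Cops8, a subunit of the COP9 signalosome on chromosome 1, was low in 4 SJL-richest mice, at 4.47 to 4.69, and at 9.28 and 9.25 in SJL-richest mice 4 and 6, against 9.18 to 10.45 in B6-rich mice (-3.65, adjusted p 0.0684). Abhd16a on chromosome 17 was low in SJL-richest mice 1 and 3, at 5.56 and 4.84, the same mice that had the highest index on that chromosome. Among the largest inbred rises, 4930555G01Rik split the B6-rich mice. Mice 1, 3 and 4 were at 4.42 to 4.62 and the others at 8.19 to 8.30. Ttl ran from 6.29 to 7.80 in B6-rich and from 7.27 to 7.71 in SJL-richest mice, against 4.56 to 4.77 in inbred B6 mice.

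Chromosome 2 held 27 of the 165 probes, more than any other, and 18 of them were lower in SJL-richest mice. A stretch from Srxn1 to Dok5, set apart after its values were seen, held 16 of them among 216 tested probes (7.41%), 11 lower and 10 also passing in the inbred comparison. Its index, the median over 6 strongly different probes that include those of Srxn1, Pdrg1 and Tbc1d20, was 0.328 in SJL-richest mouse 6 and 1.2 to 1.43 in the other 5 SJL-richest mice, against -0.031 to 0.389 in B6-rich mice. That mouse was the high one of its group for Eif2s2 too, which is not among the 6. Pdrg1 was at 8.63 in it and at 4.33 to 4.65 in the other 5, against 8.44 to 9.54 in B6-rich mice (-3.73, SE 0.634, adjusted p 0.0258). Tbc1d20, which activates the GTPase activity of Rab proteins, was at 9.01 in it and at 6.40 to 6.81 in the others, against 8.80 to 9.72 in B6-rich mice (-2.26, SE 0.39, adjusted p 0.0259). Lbp, Ptgis and Rbpjl lie in the same stretch and were higher in SJL-richest mice.

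Elsewhere on chromosome 2, 4 neighbouring probes, for Lypd6, Mmadhc, Rnd3 and Rbm43, all passed in both comparisons, 3 of them lower; this run too was set apart after its values were seen. With the block Mmadhc (0.0787) and Rbm43 (0.0712) missed the threshold. Rnd3 ran at 4.45, 4.57 and 5.49 in SJL-richest mice against 5.39, 6.38 and 6.75 in B6-rich mice, at least 1.62-fold lower (-1.56, SE 0.228, adjusted p 0.0222). SJL-richest mouse 4 was the high one of its group and B6-rich mouse 6 the low one of its own, and these overlapped. Over 3 strongly different probes of the run the index was 0.638 in SJL-richest mouse 4, 1.02 to 1.08 in the other 5, 0.64 in B6-rich mouse 6 and 0.0723 to 0.437 in the other B6-rich mice. Zeb2, a transcription factor gene close by on the same chromosome, fell by 0.62 (SE 0.0896, adjusted p 0.0222), at 10.31 to 10.70 in SJL-richest against 10.87 to 11.35 in B6-rich mice.

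Single mice also set the spread of B6-rich signals. Slc6a7, the brain proline transporter gene, was at 6.86 to 7.08 in SJL-richest mice, against 8.93 to 9.87 in 5 B6-rich mice and 6.81 in B6-rich mouse 6. Its difference was -1.84 (-1.17 with the choroid plexus mean as covariate; SE 0.375, adjusted p 0.0384, and 0.0649 with the block), and within arrays 9 to 16, where mouse 6 is the whole B6-rich group, it was 0.13. Samsn1 on chromosome 16 was at 4.56 to 4.84 in SJL-richest mice, 4.71 in B6-rich mouse 1 and 6.23 to 6.57 in the other B6-rich mice (-1.46, adjusted p 0.0292). Mus81 and Cfl1, neighbours on chromosome 19 for a DNA endonuclease and the actin-severing cofilin, were at 5.05 and 4.36 in B6-rich mouse 3, inside the SJL-richest range of 4.83 to 5.47 and 4.32 to 4.57. The other 5 B6-rich mice were at 7.00 to 8.08 for Mus81 and at 6.13 to 7.22 for Cfl1, and with the block neither passed (adjusted p 0.0607 and 0.0555). Grwd1 and Bcat2 on chromosome 7 were high in SJL-richest mice, at 7.60 to 8.18 and 7.41 to 7.99, and in B6-rich mouse 2, at 7.74 and 7.44, while the other 5 B6-rich mice stayed at 6.48 to 6.81 and 6.40 to 6.82. With the block Grwd1 passed (0.0399) and Bcat2 did not (0.053).

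Slc17a7, the vesicular glutamate transporter VGLUT1 of excitatory terminals, lies on chromosome 7 as well. It ran at 12.27, 12.49 and 12.86 in SJL-richest mice against 11.44, 11.55 and 12.35 in B6-rich mice. B6-rich mouse 2 was the one at 12.35, inside the SJL-richest range, as it was for Grwd1 and Bcat2. The difference was 0.83 (SE 0.15, adjusted p 0.0304), 1.78-fold, and it passed with the block (0.0479). Inbred SJL mice had 12.76 to 13.14 and inbred B6 mice 11.23 to 11.46, a difference of 1.57 (adjusted p 7.69e-08). It was the one of 13 measured genes of excitatory neurons and hippocampal fields to pass, and the list's median was -0.0975. Among all probes tested 1.21% passed, 0.478% higher.

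Class I histocompatibility genes, which display peptides to T cells, lie on chromosome 17 and vary strongly between strains. H2-T10 ran at 6.47, 6.91 and 7.46 in SJL-richest mice against 4.69, 4.88 and 6.39 in B6-rich mice. B6-rich mice 2 and 5, with 6.31 and 6.39, were the high ones of that group and also those with a middle index on chromosome 17, and 2 of the 6 B6-rich arrays were above background. The groups did not overlap, and the difference was 1.65 (SE 0.322, adjusted p 0.0348, and 0.0492 with the block). H2-D1 ran at 6.16, 6.96 and 7.30 in SJL-richest mice against 4.44, 4.73 and 6.46 in B6-rich mice, of which mice 5 and 2 were again the high ones and mouse 5 lay inside the SJL-richest range (1.72, SE 0.347, adjusted p 0.0379, and 0.0543 with the block). Gm8909, a class I-like predicted gene, gave 1.36 (adjusted p 0.0361, and 0.0556 with the block). These genes have near-identical copies, so a probe may read a relative, and H2-K1 was above background on none of the 12 arrays.

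Of 18 measured genes of class I and II histocompatibility and antigen processing, 3 rose, none fell, and the median difference was 0.183, or 0.0595 with the choroid plexus mean as covariate. Over all probes tested 1.21% passed, 0.478% higher. Beside H2-T10 and H2-D1 this was Tap2, a subunit of the peptide pump that feeds class I molecules, at 8.22 to 8.48 in SJL-richest against 7.58 to 8.03 in B6-rich mice (0.46, SE 0.0854, adjusted p 0.0313, and 0.0535 with the block). Its partner Tap1 gave 0.18 (adjusted p 0.591). The class II genes H2-Eb1 (0.96), H2-Ab1 (0.83) and their chaperone Cd74 (1.27) did not pass, at an adjusted p of 0.141 to 0.289. With the covariate they gave 0.35, 0.0728 and 0.41. None of 10 interferon-stimulated genes passed, with a median of 0.231, or -0.0238 with the choroid plexus mean as covariate. Gbp2, a guanylate-binding protein, had the largest difference of these, 0.54 (adjusted p 0.177).

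A direct test in limma asked which probes departed from the inbred difference times 0.465. In all 7 did (0.0515%), 4 above (0.0294%) and 3 below (0.0221%), while 1626 (12.0%) had an unadjusted p under 0.05. The fit used 1 spread a probe for all 4 groups. At the 370 probes above, the median SD was 0.443 and 0.466 in the transgenic groups against 0.142 and 0.127 in the inbred groups. The test can therefore misjudge the error at such probes. Kif1b, a kinesin motor gene, was the one to pass in both comparisons with opposite signs. It ran at 7.43, 7.85 and 8.06 in SJL-richest mice against 7.09, 7.24 and 7.52 in B6-rich mice, which overlapped at 1 SJL-richest mouse. It was 6.96 to 7.39 in inbred SJL against 7.69 to 7.89 in inbred B6 mice. This was 1 of 6 Kif1b probes, and the other 5 passed in neither comparison, at -0.05 to 0.07 in transgenic and -0.02 to 0.23 in inbred mice, so the probes of this gene disagree. At the probe that passed, the transgenic difference was 0.51 (adjusted p 0.0445, and 0.0828 with the block) and the departure 0.79 (adjusted p 0.021). Iqcb1, a ciliary gene, was higher in SJL-richest mice (0.35, adjusted p 0.0338, and 0.0555 with the block) and gave -0.13 in inbred mice, a departure of 0.41.

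The other 5 departures came from genes that did not pass in the transgenic comparison. Tmem87a and Mtrr (methionine synthase reductase) were higher in inbred SJL mice by 1.63 and 1.04 and gave 0.15 and -0.12 in transgenic mice, departures of -0.61 and -0.60. Camkk2, a calcium-dependent kinase, gave -0.23 in transgenic mice against 0.44 in inbred mice, a departure of -0.43. Me1 (0.83) and Rasgrp1 (0.58) were above background on no transgenic array of the comparison, and among the inbred mice only on B6 arrays, 4 of 4 for Me1 and 2 of 4 for Rasgrp1. With the set of 8 arrays as a block 5 probes departed, of which 2 were among the 7, those of Me1 and Mtrr. The number of departures ran from 3 (without B6-rich mouse 5) to 31 (without SJL-richest mouse 4) when 1 mouse was left out. It was 14 without B6-rich mouse 3 or mouse 6, 15 without SJL-richest mouse 6 and 4 without inbred SJL mouse 2. The inbred and transgenic mice were on separate arrays, but an equal log2 shift of all inbred arrays cancels in this test. Both the transgenic groups and the inbred groups were split unevenly over sets of 8 arrays. A shift between sets can therefore enter a departure fitted without the block.

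Myelin genes, which wrap axons and mark oligodendrocytes, mostly had negative differences, and none passed. Of 13 measured, 12 were negative, 8 of them with an unadjusted p under 0.05, and the median was -0.264. Over all probes tested 8.07% were lower at that p, and 51.89% were positive. Their mean signal was 10.10 to 10.42 in SJL-richest mice against 10.24 to 10.71 in B6-rich mice, and the groups overlapped. Mog gave -0.48 (adjusted p 0.0883), Mobp -0.47 (adjusted p 0.0957) and Mal -0.42 (adjusted p 0.0765). In bulk tissue fewer cells of a type and less RNA per cell cannot be told apart. With the choroid plexus mean as covariate the median was -0.156.

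**Figure D5:**
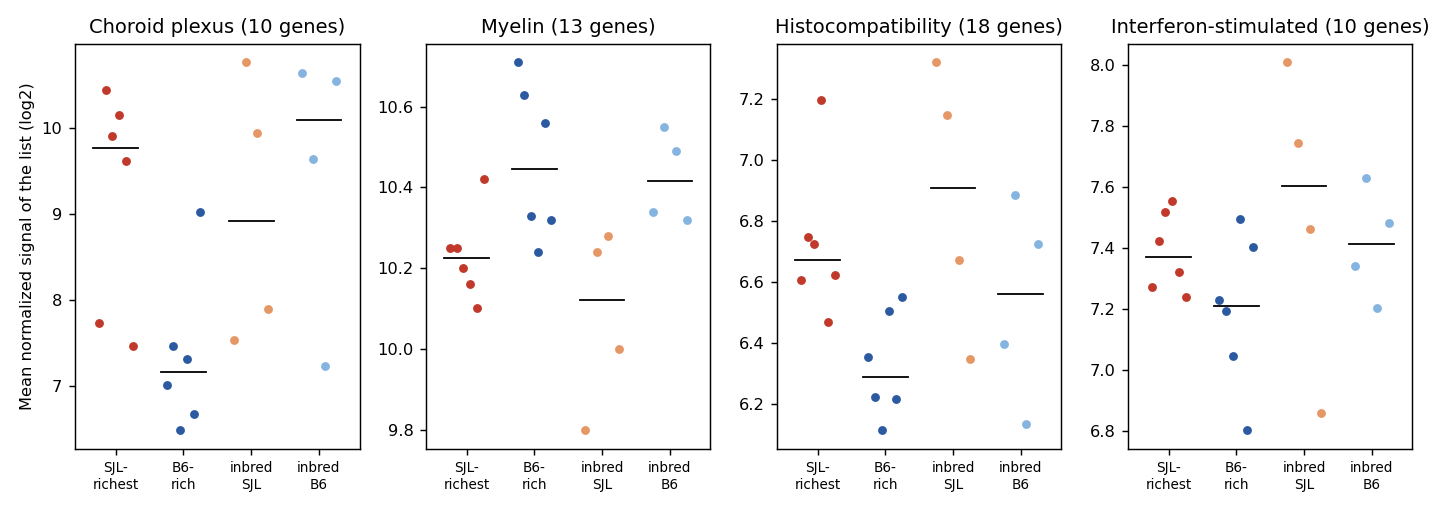
Mean normalized log2 signal per mouse (y axis, a scale of its own for each panel) over 10 choroid plexus, 13 myelin, 18 histocompatibility and 10 interferon-stimulated genes in SJL-richest, B6-rich, inbred SJL and inbred B6 mice; each point is a mouse and each bar the group's median. Choroid plexus means span 7.47 to 10.45 in SJL-richest and 6.48 to 9.02 in B6-rich mice, and vary as widely among the inbred mice.

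Of the glial lists, those of plaque-associated microglia and of astrocytes held 1 call each and the others none. The share that passed among all probes tested was 1.21%, with 0.736% lower. Among 20 measured genes of plaque-associated microglia only C1qa fell, the first chain of the complement protein C1q. It ran at 7.72, 7.98 and 8.18 in SJL-richest mice against 8.28, 8.42 and 8.66 in B6-rich mice, without overlap (-0.47, SE 0.0861, adjusted p 0.0311, and 0.0504 with the block). Its partners C1qb (-0.69, adjusted p 0.0935) and C1qc (-0.50, adjusted p 0.0618) did not pass. The median of that list was -0.00491. None of 11 homeostatic microglia genes passed (median -0.0294).

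Among 9 astrocyte genes only Aldh1l1 fell, a folate enzyme used as an astrocyte marker. It ran at 8.32, 8.35 and 8.55 in SJL-richest mice against 8.58, 8.66 and 8.83 in B6-rich mice (-0.28, SE 0.0603, adjusted p 0.0473, and 0.0494 with the block), and its other probes gave -0.33 and -0.44 with an adjusted p of 0.0259 and 0.049. It lost its call without any one of the 12 mice. The list's median was -0.0947, and 1.21% of all probes tested passed, 0.736% lower. None of 10 reactive astrocyte genes passed (median 0.0642). Nor did any of 11 interneuron and neuropeptide genes, 9 genes of thalamus and neighbouring tissue, 10 vessel, pericyte and blood genes, 11 immediate early genes, 9 heat shock genes, 16 kinesin-1 and axonal transport genes, 10 known strain-variant genes or 2 sex chromosome genes, each at its brightest probe; for Kif1b that is another probe than the one that passed. Their medians lay between -0.0581 (interneurons and neuropeptides) and 0.277 (vessel, pericyte and blood, 0.101 with the choroid plexus mean as covariate). The kinesin-1 median of 0.00152 was -0.0228 with the normalized table, and the sex chromosome median of -0.0263 was 0.00398 with the block.

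None of 23 genes of amyloid precursor processing and clearance passed (median 0.0511), against 1.21% of all probes tested. App, the mouse gene, ran at 12.84, 12.90 and 12.98 in SJL-richest mice against 12.76, 12.81 and 12.94 in B6-rich mice, and the groups overlapped (0.08, SE 0.0478, adjusted p 0.435). Prnp gave 0.05 (adjusted p 0.708), and the 5 probes of Klc1, a kinesin light chain gene, gave -0.01 to 0.16, none of which passed. Whether the App probe also reads the transgene was not tested.

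Abeta40 did not separate the groups. Its log10 level was 4.8 ± 0.284 in SJL-richest and 4.59 ± 0.371 in B6-rich mice (SD, n = 6 each). The highest SJL-richest mouse was mouse 6 at 5.16 and the lowest mouse 5 at 4.32, against 5.05 in B6-rich mouse 2 and 4.06 in B6-rich mouse 3. The difference of 0.211, or 1.62-fold, had p = 0.288 in a two-sided exact permutation test over 924 splits, whose smallest possible p is 0.00216. Leaving out 1 mouse moved the difference to between 0.104 (1.27-fold, without B6-rich mouse 3) and 0.308 (2.03-fold, without SJL-richest mouse 5). It was 0.139 without SJL-richest mouse 6. Among the 3 SJL-richest and 5 B6-rich mice of arrays 1 to 8 it was 0.215, with p = 0.446 in the exact permutation test, whose smallest possible p there is 0.0357.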

How the data were processed

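Per the labels' protocols, hippocampal RNA was amplified to biotinylated cRNA for bead arrays. The deposited non-normalized table holds intensity values, from their range background-subtracted (software not given in the sources used here). Its detection score, a deposited fraction per probe and array, grows with signal, and 1 minus that score served as the detection p. The second deposited table holds intensity values the authors normalized by a method not stated, used as an alternative. Intensities were normalized with neqc (limma 3.58.1 in R 4.3.3, offset 16) over all 40 arrays and fitted with lmFit and eBayes. Fits used the 12 transgenic arrays, the 12 inbred arrays of SJL, B6 and DBA, or the 20 arrays of the 4 groups for departures. The p-values of these fits were adjusted over 13589 probes, and those under another detection filter over the probes it left. Steps were tested on simulated data.

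Of 25697 probes, 23978 had 1 gene symbol, 1719 none and none several; 23962 were matched by Entrez number to RefSeq genes (GRCm38.p6), used for names and gene order only. A fold for a probe below background on every array of a group is a bound, from the lowest signal above background. Lists describe 1 probe a gene.

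Named genes were the 14 largest differences each way among probes that passed without overlap, other probes of those genes, the largest inbred differences and departures each way, list genes that passed, App, Prnp and Klc1. Other genes were named after their values were seen. Members, lists and rules were chosen with earlier results of these data known. Replicates are separate mice, and the number of arrays limits precision. Alternatives were another normalization, the detection filter, variance settings, array sets as a block, all transgenic arrays, the methods' t-test and each mouse left out.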

Additional observations from a re-analysis of the deposited data

Results flagged for a closer look

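Single mice stood apart from the rest of their group at many named probes, by a gap to the nearest mouse that was a large part of the group's whole range. This held in 22 of 153 values looked at in SJL-richest mice (14.4%), 17 of 153 in B6-rich mice (11.1%), 9 of 151 in inbred SJL mice (5.96%) and 5 of 151 in inbred B6 mice (3.31%). Chance alone marks about 5% of groups, and many of these genes were picked with their values in view.

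The gaps below are given as a fraction of the range. In SJL-richest mice, mouse 6 was high for Srxn1 (0.758, and 0.849 at the second probe), Eif2s2 (0.634), Pdrg1 (0.926) and Tbc1d20 (0.842), and low for Gldc (0.71). Mouse 4 was high for Lypd6 (0.842), Rnd3 (0.849), Zeb2 (0.644) and D830030K20Rik (0.767). It was low for Spink8 (0.863), Tmem68 (0.94), Zfp330 (0.979), 4930555G01Rik (0.674) and Gm5797 (0.73). Mouse 3 was high for Zfp365 (0.908), Cldn10 (0.735) and Bcat2 (0.792). Mouse 2 was high for Gm5801 (0.886) and B3galt6 (0.787) and low for Gnb1 (0.672). Mouse 5 was high for Rasgrp1 (0.867), which was below background.

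In B6-rich mice, mouse 6 was high for the choroid plexus genes Kl (0.721), Kcne2 (0.712), Sostdc1 (0.636), Aqp1 (0.682) and Cldn2 (0.78) and for H2-DMb1 (0.637), and low for Slc6a7 (0.692). Mouse 1 was high for Sstr1 (0.669), Rtn4 (0.776), Hbq1a (0.836) and the mean of the astrocyte list (0.772), and low for Samsn1 (0.819). Mouse 2 was high for Slc17a7 (0.779), Grwd1 (0.738) and H2-DMa (0.639). Mouse 3 was low for Mus81 (0.642) and mouse 4 high for Serpina1b (0.842).

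In inbred SJL mice, mouse 4 was low for Ninj2 (0.928), Hspg2 (0.854) and Slc6a7 (0.909) and high for Me1 (0.85) and Mmadhc (0.835). Mouse 1 was low for Trpm4 (0.909) and B3galt6 (0.846) and high for Psmb8 (0.846) and the mean of the vessel, pericyte and blood list (0.863). In inbred B6 mice, mouse 4 was low for Lypd6 (0.844) and high for C1qa (0.876), mouse 1 was high for Aldh1l1 (0.868), and mouse 3 was low for Ttr (0.848) and Rcan2 (0.831).

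The transgenic difference departed from the scaled inbred difference in limma, on the log2 scale, for Kif1b (0.791), Me1 (0.831), Iqcb1 (0.409), Rasgrp1 (0.576), Camkk2 (-0.43), Tmem87a (-0.606) and Mtrr (-0.602).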

How the results depend on the processing

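The count of 165 probes between SJL-richest and B6-rich mice was 102 with no detection filter, 105 with the set of 8 arrays as a block, 267 with all 28 transgenic arrays in the fit, 19 within arrays 1 to 8, 0 within arrays 9 to 16 and 16 by the methods' t-test after Benjamini-Hochberg adjustment. With the choroid plexus mean as a covariate it was 0, and with that covariate and the block 1, both settings added after the data were seen. Leaving out 1 mouse gave 12 to 317. The inbred count of 1841 was 0 with the normalized table, whose inbred labels disagree. It was 1579 with the set of 8 arrays as a block and 1453 to 1747 with 1 mouse left out. The 7 departures were 0 with the normalized table, 23 with quantile normalization, 13 with trend and robust variances, and 3 to 31 with 1 mouse left out. The same-sign share of 85.66% was 96.79% over 561 inbred probes at the series' stricter limits and 83.87% with the block; over probes called with the normalized table it could not be computed, since none passed. The slope of 0.421 was 0.334 as a median ratio. Differences changed sign with the normalized table for inbred H2-D1 (-0.547), Ttl (-0.0127) and Cops8 (0.0758), and within arrays 9 to 16 for transgenic Slc6a7 (0.134). The cause was not tested. Apart from Slc6a7, the 69 named probes followed kept their sign, but 876 of their results over these settings missed the threshold. Another 1055 results stayed on the same side of it, a count that also holds the probes of App, Prnp and Klc1, which had not passed. Some other named probes that had not passed changed sign, such as Ttr (-0.12) and Kcne2 (-0.586) within arrays 9 to 16. Kcne2 (-0.301) also did so with the choroid plexus covariate. No paired analysis was possible because each running number is unique to 1 mouse and the replicate numbers follow accession order. Signal near background limits Serpina1d, Fam199x, Me1 and Rasgrp1.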
